A study of Mus musculus with 9 samples.

Results

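The genes described here act in mitosis, at the kinetochore and in chromosome segregation. They are 52 genes chosen by name, and 51 of them were measured, among 18193 genes in all. Each gene was read through the probe set that carried its symbol alone and had the highest mean over the 9 arrays. Ccnb1 had no probe set of that kind in the annotation used and is not analysed here. The 51 genes fall into 8 roles: 8 kinases, cyclins and regulators of mitotic entry, 9 spindle checkpoint and anaphase genes, 4 chromosomal passenger genes, 9 centromere and kinetochore genes, 8 augmin subunits, 2 spindle assembly factors, 4 cytokinesis genes and 7 condensin and chromosome structure genes.

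RNA came from 3 mouse lines on the mixed C57/BL6 x sv129 background, with 3 Affymetrix MG-430 2.0 arrays per line. MDA-F471, the tumour line, comes from a lung adenocarcinoma of a female mouse lacking Gprc5a, killed 16 months after the tobacco carcinogen NNK had been injected into its peritoneum. The knockout line is a non-tumorigenic epithelial line from the trachea of a Gprc5a knockout mouse aged 3 weeks, and the wild-type line is its counterpart from a wild-type mouse of the same age. The tumour and knockout lines thus share the loss of Gprc5a, and neither tracheal line is labelled as NNK-exposed. Each group is 1 line, so genotype, NNK, organ of origin, age of the mouse, tumour origin and handling of the line cannot be told apart. The labels do not say whether the 3 arrays of a line are separate cultures, and p-values therefore measure only the spread between these arrays.

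Cells enter mitosis when cyclin B-bound Cdk1 becomes active, and polo-like and Aurora kinases then build the spindle. Kinetochores, assembled on centromeric chromatin that carries the histone variant encoded by Cenpa, attach the chromosomes to microtubules, while the spindle checkpoint holds Cdc20 inactive until every kinetochore is attached. Separase then cuts cohesin, condensin keeps the sister chromatids compact, and the central spindle and contractile ring divide the cell. Many of these genes are transcribed late in the cell cycle, under the MuvB complexes, B-Myb and Foxm1, and their transcripts are scarce in resting cells. In RNA from a whole culture, more cells in the late cell cycle and more transcript per cell cannot be told apart.

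Array medians lay between 6.28 and 6.34 log2, and correlations between arrays over all probe sets were 0.990 to 0.996 within a line and 0.913 to 0.975 between lines. Gprc5a itself averaged 7.02 log2 in tumour cells, 7.16 in knockout cells and 8.57 in wild-type cells. Of 4 epithelial markers, Epcam and Cdh1 were not called in any comparison, at 12.03 and 11.92 in the tumour line, 11.73 and 12.63 in the knockout line, and 11.74 and 12.88 in the wild-type line. The simple epithelial keratins moved with the tumour comparisons: Krt18 averaged 14.08 in tumour, 10.59 in knockout and 8.03 in wild-type cells and was called in all 3 comparisons, and Krt8, at 13.99, 12.66 and 11.68 in the same order of lines, was called in both tumour comparisons. The basal cell keratins Krt5 and Krt14 averaged 8.43 and 7.25 in the tumour line, against 14.38 and 14.68 in the knockout line and 14.46 and 14.52 in the wild-type line. The summed signal of the 4 airway basal markers (Krt5, Krt14, Krt15 and Trp63) was 9.01 to 9.29 log2 on tumour arrays, 15.70 to 15.75 on knockout arrays and 15.70 to 15.79 on wild-type arrays, and Trp63 lay under the detection floor in tumour cells alone. Basal markers thus moved with the tumour comparisons too, and the part of neither keratin group in the mitotic differences was tested. Sftpc, the surfactant gene of alveolar type II cells, averaged 5.72 in tumour cells, 5.74 in knockout cells and 5.78 in wild-type cells, close to the detection floor of 5.15. Of the other alveolar type II markers, Sftpb averaged 7.85, 7.99 and 7.68 in the same order, Sftpa1 and Nkx2-1 lay between 5.13 and 5.47, and none of the 4 was called. Of 5 leukocyte, 7 fibroblast and 4 endothelial markers, 1 each (Ptprc, Col3a1 and Tek) lay under the floor in all 3 lines, and means of the other markers reached 8.03. Their summed log2 signals were, for leukocytes, 9.16 to 9.32 on tumour, 9.18 to 9.41 on knockout and 9.28 to 9.43 on wild-type arrays. For fibroblasts they were 8.63 to 8.71, 8.58 to 8.76 and 8.67 to 8.83, and for endothelium 8.12 to 8.24, 8.09 to 8.24 and 8.03 to 8.18, in the same order. Cd68, at 6.92 in tumour and 8.03 in wild-type cells, was the 1 of these 16 markers called, lower in tumour against wild type, and its part in the results was not tested. The spike-in control BioB-M read 7.60 to 8.24 on the tumour arrays, against 8.32 to 9.48 on the knockout and 8.42 to 8.57 on the wild-type arrays, and its part in the results below was not tested.

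The mitotic genes were higher in the tumour line than in either tracheal line. To be called, a gene needed a limma adjusted p under 0.05, over all 18193 genes, and a difference of 2-fold or more. In the tumour against the knockout line 44 of the 51 genes were called higher and 0 lower, while 7.79% of all genes were called higher and 6.38% lower. The median log2 difference over the 51 genes was 2.01, against 2.73e-05 over all genes, and the differences ran from -0.19 to 3.13. In the tumour against the wild-type line 44 were again called higher and 0 lower, with 8.09% and 8.46% of all genes called in these directions, and the median was 1.96, against 0.0101 over all genes. By adjusted p alone, 50 of the 51 genes were higher and 0 lower in either comparison. Of all genes, 44.5% passed that rule in either direction against the knockout line and 47.3% against the wild-type line. These comparisons share the tumour arrays, so their values are given side by side. Called in both were 43 genes, and 6 were called in neither.

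**Figure D1:**
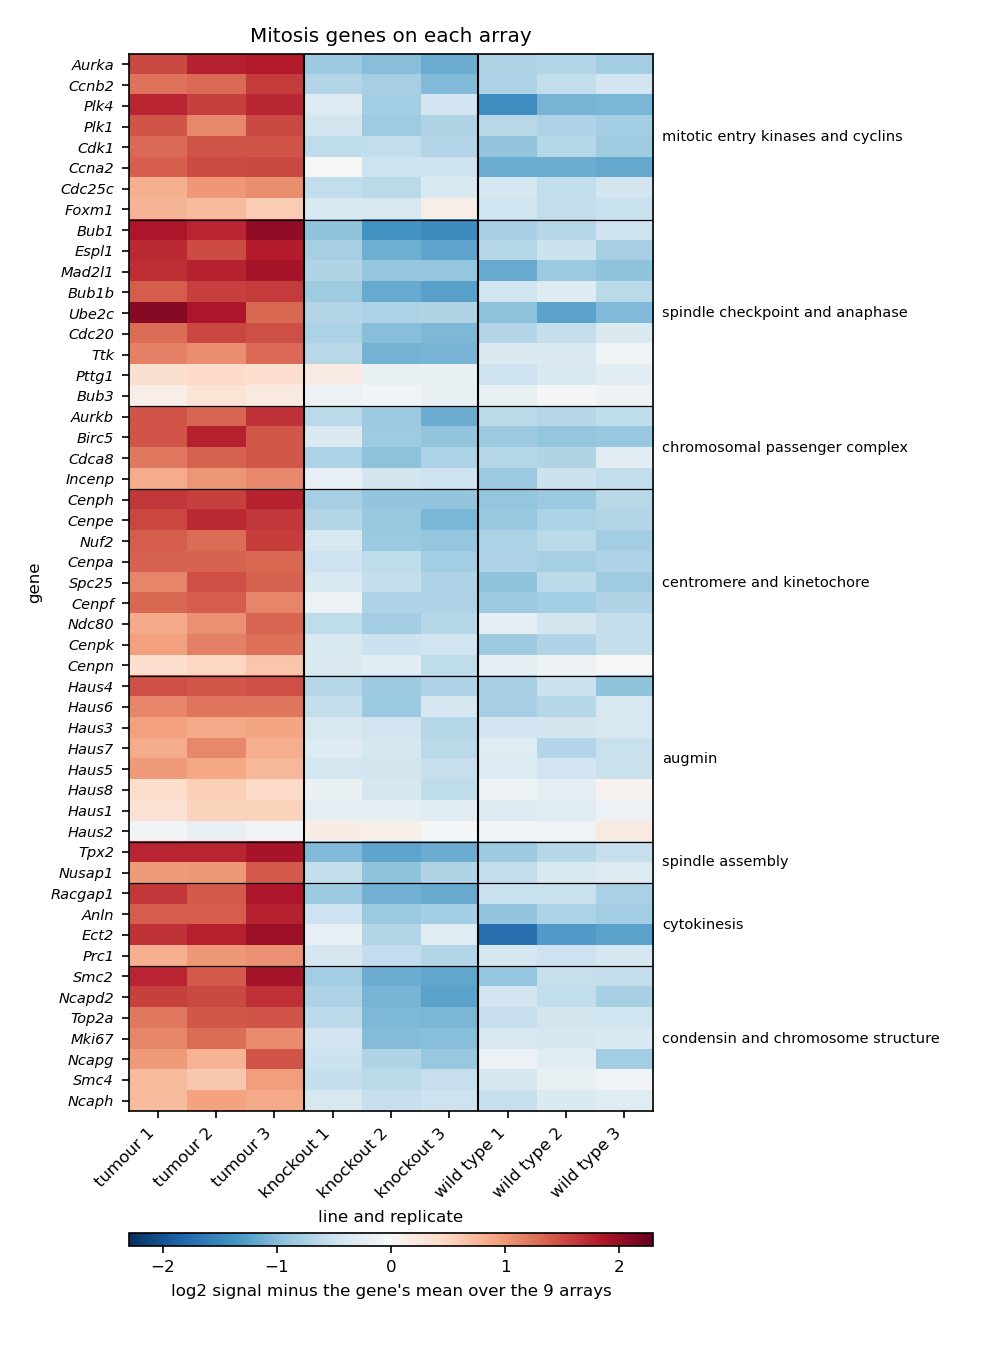
Log2 signal of each of the 51 mitotic genes on each of the 9 arrays, as the difference from the gene's mean over the 9 arrays, with genes in rows by role and arrays in columns (tumour, knockout, wild type, 3 each). The 3 tumour columns are above those of both tracheal lines in every row except that of Haus2.

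For 50 of the 51 genes every tumour array was above all 6 other arrays, the exception being Haus2. The gap between the lowest tumour array and the highest other array had a median of 1.51 log2 over the 51 genes. It ran from -0.40 in Haus2, and from 0.17 in Bub3 among the other 50, up to 2.39. Of all genes, 27.4% had every tumour array above every knockout array and 24.9% below; against the wild-type arrays these shares were 28.4% and 26.3%. Within a line the arrays were close: the median SD over the 51 genes was 0.13 log2 for tumour, 0.18 for knockout and 0.13 for wild-type arrays. The median signal relative to each gene's own mean was 1.25, 1.35 and 1.42 on the tumour arrays, -0.49, -0.79 and -0.70 on the knockout arrays, and -0.65, -0.56 and -0.55 on the wild-type arrays. Knockout replicate 1 was the highest knockout array for 43 of the 51 genes, and tumour replicate 3 the highest tumour array for 31.

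**Figure D2:**
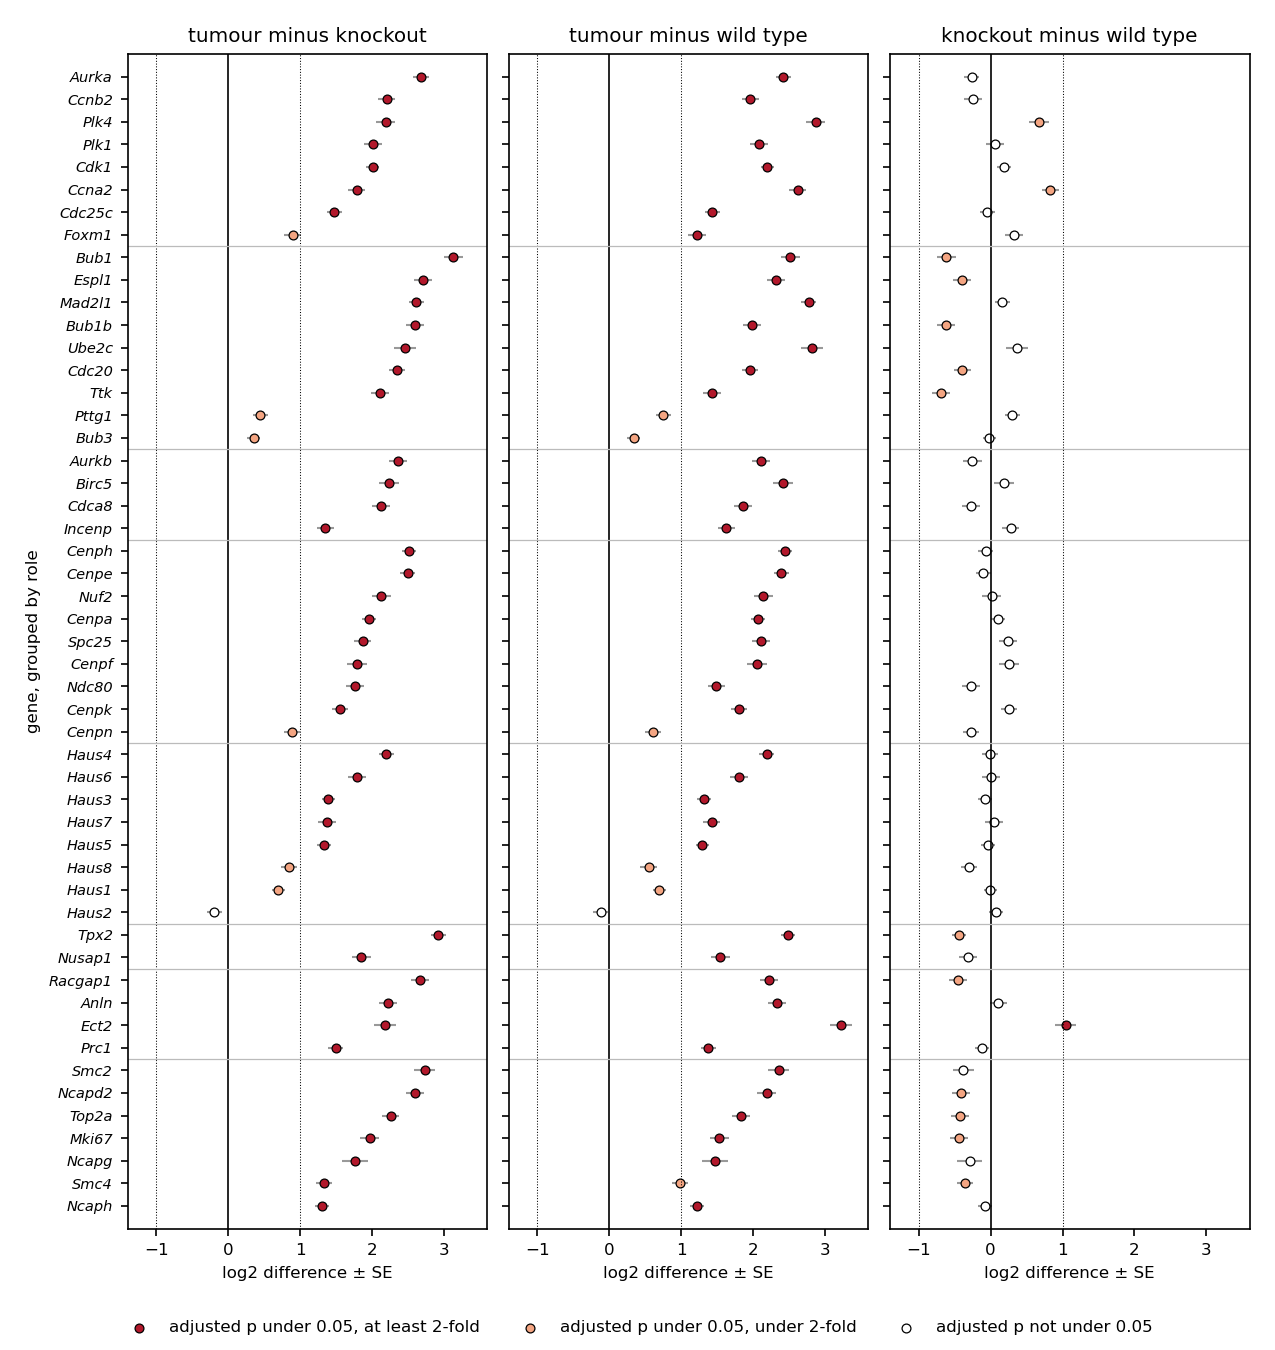
Log2 difference of each mitotic gene by role, with limma standard errors, for tumour minus knockout, tumour minus wild type and knockout minus wild type. The tumour differences lie between -0.19 and 3.22, with Haus2 alone below 0, and the knockout minus wild-type differences lie between -0.69 and 1.04.

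All 8 mitotic entry genes had higher signals in the tumour line, with 7 called against the knockout line (median 2.01) and 8 against the wild-type line (median 2.14). Aurka, the centrosomal kinase that builds spindle poles, read 10.26, 10.52 and 10.58 log2 on the tumour arrays, 7.92, 7.77 and 7.62 on the knockout arrays, and 8.07, 8.07 and 7.97 on the wild-type arrays. The tumour arrays stood apart from the other 6, by 2.68 ± 0.11 against the knockout line (limma SE, adjusted p = 2.98e-11) and 2.42 ± 0.11 against the wild-type line (adjusted p = 7.64e-11). Cdk1, the kinase that drives entry, read 11.41, 11.57 and 11.56 in the tumour line, 9.52, 9.55 and 9.44 in the knockout line, and 9.20, 9.45 and 9.30 in the wild-type line, a difference of 2.01 ± 0.09 against knockout and 2.20 ± 0.09 against wild type. Its partner cyclin B2, encoded by Ccnb2, differed by 2.20 ± 0.12 and 1.96 ± 0.12, and its activating phosphatase Cdc25c by 1.48 ± 0.10 and 1.43 ± 0.10. Plk1, which acts at centrosomes, kinetochores and the midzone, differed by 2.01 ± 0.12 and 2.08 ± 0.12.

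Ccna2, Plk4, Foxm1 and Aurka were the 4 entry genes in which the arrays of no pair of lines overlapped, and Ccna2 and Plk4 were the 2 of these past the adjusted p between the tracheal lines. Ccna2, the cyclin A2 gene, read 10.87, 11.01 and 11.01 in the tumour line, 9.49, 9.02 and 9.02 in the knockout line, and 8.36, 8.36 and 8.32 in the wild-type line. Plk4, the kinase that starts centriole duplication, read 10.23, 10.05 and 10.22 in the tumour line, 8.18, 7.69 and 8.04 in the knockout line, and 7.06, 7.42 and 7.42 in the wild-type line. Both had their knockout arrays between those of the tumour and wild-type lines. Foxm1, the forkhead factor that activates late cell cycle genes, read 9.90, 9.85 and 9.71 in the tumour line, 8.78, 8.76 and 9.25 in the knockout line, and 8.66, 8.55 and 8.61 in the wild-type line. Its difference passed the adjusted p but not the fold against the knockout line (0.89 ± 0.12, adjusted p = 2.17e-05) and was called against the wild-type line (1.22 ± 0.12, adjusted p = 7.61e-07). Knockout replicate 3 was its highest knockout array, and without it the tumour difference from the knockout line was 1.06 and called.

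The spindle checkpoint and anaphase genes had the highest role median among groups of at least 4 genes against the knockout line, 2.46, with 7 of 9 called; against the wild-type line the median was 1.98, also with 7 of 9 called. Bub1, the checkpoint kinase that sits at the kinetochore, had the largest difference of the 51 genes from the knockout line. It read 10.21, 10.10 and 10.38 on the tumour arrays, 7.42, 6.98 and 6.90 on the knockout arrays, and 7.58, 7.70 and 7.87 on the wild-type arrays. The tumour line was 8.76-fold above the knockout line (3.13 ± 0.13, adjusted p = 6.5e-11), and the difference from the wild-type line was 2.51 ± 0.13 (adjusted p = 5.92e-10). Mad2l1, whose product binds Cdc20 when kinetochores are unattached, read 11.62, 11.68 and 11.82 in the tumour line, 9.23, 9.03 and 9.03 in the knockout line, and 8.76, 9.06 and 8.98 in the wild-type line. Here knockout and wild-type arrays overlapped, and the tumour difference was 2.61 ± 0.10 from knockout and 2.77 ± 0.10 from wild type.

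Bub1b, which encodes the BubR1 subunit of the checkpoint complex, differed by 2.60 ± 0.12 against knockout and 1.98 ± 0.12 against wild type, and Ttk, the Mps1 kinase at the head of the checkpoint, by 2.11 ± 0.13 and 1.43 ± 0.13. The anaphase side moved as well. Cdc20, the activator of the anaphase-promoting complex that the checkpoint restrains, differed by 2.35 ± 0.11 and 1.95 ± 0.11. Espl1, which encodes separase, read 9.41, 9.21 and 9.51 in the tumour line, 6.94, 6.57 and 6.48 in the knockout line, and 7.04, 7.20 and 6.94 in the wild-type line, a difference of 2.71 ± 0.13 and 2.31 ± 0.13. Ube2c, the ubiquitin-conjugating enzyme of the anaphase-promoting complex, had the widest spread within a line, with tumour arrays at 11.62, 11.37 and 10.84 (SD 0.40, n = 3). All 3 were still above its knockout arrays (8.84, 8.80 and 8.82) and its wild-type arrays (8.58, 8.28 and 8.51). The differences were 2.46 ± 0.15 from knockout and 2.82 ± 0.15 from wild type.

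Bub3 and Pttg1 were the 2 checkpoint and anaphase genes not called. Bub3, the adaptor that carries Bub1 and BubR1 to kinetochores, read 11.55, 11.72 and 11.64 in the tumour line, 11.27, 11.34 and 11.23 in the knockout line, and 11.23, 11.38 and 11.29 in the wild-type line. Its differences of 0.35 ± 0.09 (adjusted p = 0.00404) and 0.34 ± 0.09 (adjusted p = 0.00533) passed the adjusted p but were far under 2-fold. The call on adjusted p rests on a probe set of a type that can pick up related transcripts: without such probe sets the difference from the knockout line was 0.08 (adjusted p = 0.618). Pttg1, the securin gene, read 12.14, 12.21 and 12.15 in the tumour line, 11.95, 11.59 and 11.62 in the knockout line, and 11.30, 11.42 and 11.53 in the wild-type line. It was bright on every array, and its tumour arrays exceeded the highest other array by 0.19. The difference was 0.45 ± 0.11 from knockout (adjusted p = 0.00301) and 0.75 ± 0.11 from wild type (adjusted p = 2.94e-05). Read through another probe set, Pttg1 differed from the wild-type line by 1.09 and was called.

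All 4 chromosomal passenger genes were called in both tumour comparisons, with medians of 2.18 against knockout and 1.98 against wild type. Aurkb, the kinase of the complex, which corrects wrong attachments, read 9.35, 9.25 and 9.56 in the tumour line, 7.28, 7.06 and 6.75 in the knockout line, and 7.30, 7.24 and 7.31 in the wild-type line. Birc5, the survivin gene, read 10.62, 10.96 and 10.60 in the tumour line, 8.84, 8.36 and 8.27 in the knockout line, and 8.33, 8.29 and 8.30 in the wild-type line. Both stood more than 4-fold higher in the tumour line than in either tracheal line. Cdca8, the borealin gene, differed by 2.13 ± 0.12 against knockout and 1.86 ± 0.12 against wild type. Incenp, the scaffold of the complex, had the smallest difference of the 4, 1.35 ± 0.12 and 1.63 ± 0.12.

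Of the 9 centromere and kinetochore genes 8 were called in each tumour comparison, with medians of 1.87 against knockout and 2.07 against wild type. Cenpa, the centromeric histone H3 variant, read 10.63, 10.62 and 10.59 in the tumour line, 8.79, 8.69 and 8.48 in the knockout line, and 8.56, 8.51 and 8.56 in the wild-type line. Cenpe, the kinetochore kinesin, differed by 2.49 ± 0.11 and 2.39 ± 0.11, and Cenpf, a large protein of the outer kinetochore, by 1.79 ± 0.14 and 2.05 ± 0.14. Among the inner kinetochore subunits, Cenph had the largest difference. It read 8.42, 8.36 and 8.57 in the tumour line, 6.03, 5.89 and 5.90 in the knockout line, and 5.92, 5.95 and 6.15 in the wild-type line, 2.51 ± 0.10 and 2.44 ± 0.10 apart. The tracheal arrays of Cenph overlapped and lay close to the detection floor. Cenpk, of the same inner layer, differed by 1.55 ± 0.11 and 1.80 ± 0.11. Cenpn, which reads the Cenpa nucleosome, was the gene not called, with 0.88 ± 0.11 against knockout (adjusted p = 6.78e-06) and 0.61 ± 0.11 against wild type (adjusted p = 0.000226). The microtubule-binding NDC80 complex was higher in all 3 measured subunits: Nuf2 by 2.13 ± 0.13 and 2.14 ± 0.13, Spc25 by 1.87 ± 0.12 and 2.11 ± 0.12, and Ndc80 itself by 1.77 ± 0.12 and 1.49 ± 0.12.

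Augmin, the 8-subunit complex that starts new microtubules from existing spindle microtubules, had the lowest role median in both tumour comparisons. Its medians were 1.35 against knockout and 1.31 against wild type, with 5 of 8 subunits called in each comparison. The 43 mitotic genes outside augmin had medians of 2.13 and 2.07, and whether augmin differs from them was not tested. Haus4 differed most, at 10.07, 10.02 and 10.08 in the tumour line, 7.94, 7.75 and 7.89 in the knockout line, and 7.84, 8.10 and 7.67 in the wild-type line. The difference was 2.20 ± 0.11 from knockout and 2.19 ± 0.11 from wild type. Haus6 followed at 1.79 ± 0.13 and 1.80 ± 0.13, then Haus3, Haus7 and Haus5 between 1.29 and 1.42.

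The other 3 augmin subunits were not called. Haus1 and Haus8 passed the adjusted p in both tumour comparisons but not the fold: Haus1 differed by 0.69 ± 0.09 in each, and Haus8 by 0.85 ± 0.12 against knockout and 0.55 ± 0.12 against wild type. Haus2 read 9.25, 9.11 and 9.25 in the tumour line, 9.47, 9.44 and 9.27 in the knockout line, and 9.22, 9.23 and 9.50 in the wild-type line. It was the single gene of the 51 with a lower mean in the tumour line, and the difference was not past the test, at -0.19 ± 0.10 against knockout (adjusted p = 0.148) and -0.12 ± 0.10 against wild type (adjusted p = 0.384). Its tumour arrays lay below its knockout arrays by a small margin, and after quantile normalization the difference from knockout passed the adjusted p (-0.28, adjusted p = 0.0424). With all its probe sets averaged, Haus2 was higher in the tumour than the wild-type line (0.37, adjusted p = 0.00238), under 2-fold. Read through its brightest probe set, no subunit passed the adjusted p between knockout and wild-type lines.

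**Figure D3:**
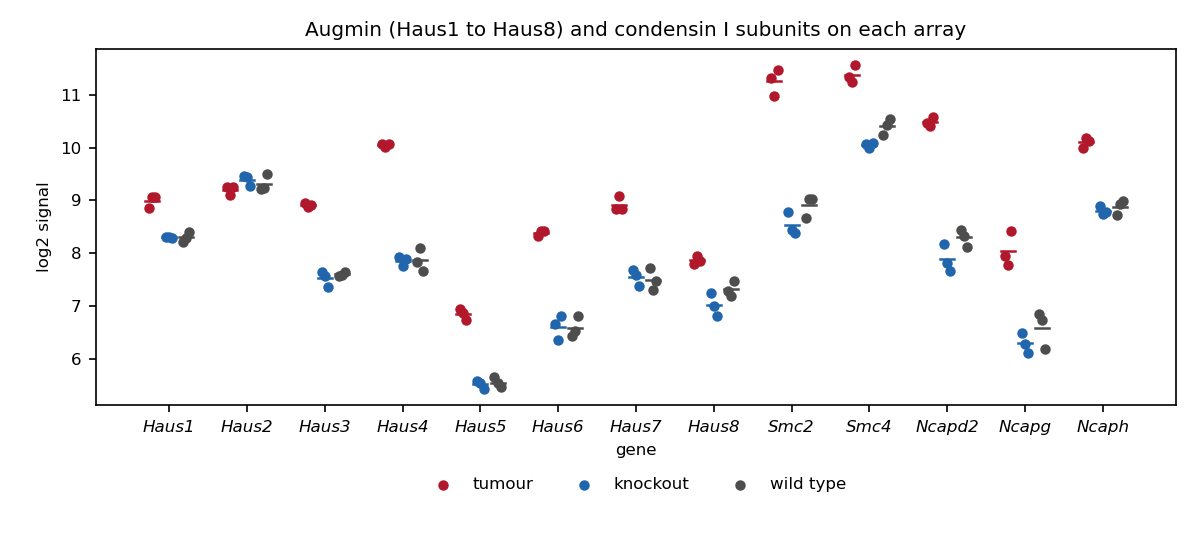
Log2 signal of the 8 augmin and 5 condensin I subunits on each array (points) with the mean of each line (bars), for the tumour, knockout and wild-type lines, left to right within a gene. The tumour points of Haus2 lie among or under the others, and those of the other 12 genes lie above.

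Both spindle assembly factors and all 4 cytokinesis genes were called in each tumour comparison. Tpx2, which activates Aurka on spindle microtubules, read 10.25, 10.26 and 10.39 in the tumour line, 7.49, 7.29 and 7.35 in the knockout line, and 7.66, 7.83 and 7.96 in the wild-type line. It had the smallest adjusted p of the 51 genes against the knockout line (2.92 ± 0.10, adjusted p = 6e-12). The further probe sets of Tpx2 differed less there, by 1.53 (called), 0.51 and 0.48 (both not called). Nusap1, a microtubule-binding spindle protein, differed by 1.85 ± 0.13 and 1.54 ± 0.13. Ect2, the exchange factor that switches on RhoA at the division plane, had the largest difference of the 51 genes from the wild-type line. Its arrays read 11.21, 11.34 and 11.51 in the tumour line, 9.37, 8.89 and 9.27 in the knockout line, and 7.82, 8.26 and 8.32 in the wild-type line. The tumour line was 9.33-fold above the wild-type line (3.22 ± 0.15, adjusted p = 1.16e-10) and 2.18 ± 0.15 log2 above the knockout line (adjusted p = 1.11e-08).

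Racgap1, the centralspindlin subunit that recruits Ect2, read 10.43, 10.23 and 10.67 in the tumour line, 7.96, 7.71 and 7.66 in the knockout line, and 8.30, 8.30 and 8.07 in the wild-type line. Its order of the tracheal lines was opposite to that of Ect2, with all knockout arrays below all wild-type arrays. Anln, the anillin of the contractile ring, differed by 2.23 ± 0.12 against knockout and 2.33 ± 0.12 against wild type, and Prc1, which bundles midzone microtubules, by 1.49 ± 0.10 and 1.38 ± 0.10.

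All 7 condensin and chromosome structure genes were called against the knockout line (median 1.97) and 6 against the wild-type line (median 1.53). Smc2, an ATPase subunit shared by both condensins, read 11.32, 10.97 and 11.48 in the tumour line, 8.77, 8.43 and 8.37 in the knockout line, and 8.67, 9.03 and 9.02 in the wild-type line, a difference of 2.73 ± 0.15 and 2.35 ± 0.15. Its partner Smc4 differed less, by 1.33 ± 0.11 against knockout and 0.98 ± 0.11 against wild type (adjusted p = 1.92e-06), just under the fold required. Against wild type Smc4 was called without tumour replicate 1 (1.00), tumour replicate 2 (1.05) or wild-type replicate 3 (1.05), and after quantile normalization (1.00). The condensin I subunits Ncapd2, Ncapg and Ncaph differed by 2.60 ± 0.13, 1.76 ± 0.18 and 1.30 ± 0.10 against knockout, and by 2.19 ± 0.13, 1.47 ± 0.18 and 1.22 ± 0.10 against wild type. Each of the 5 was called higher against the knockout line, and whether the subunits differ in size of change was not tested. Their order depended on the probe set: a second, nearly as bright one gave 2.85 for Ncapg against knockout, and a second one gave 1.79 for Ncaph. Top2a, which unlinks sister DNA, read 11.27, 11.48 and 11.49 in the tumour line, 9.45, 9.01 and 8.99 in the knockout line, and 9.52, 9.62 and 9.60 in the wild-type line. Mki67, the Ki-67 gene that marks cycling cells, read 10.53, 10.70 and 10.51 in the tumour line, 8.98, 8.42 and 8.43 in the knockout line, and 9.06, 9.03 and 9.06 in the wild-type line, 1.97 ± 0.13 and 1.53 ± 0.13 apart.

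Promoter sequence is shown for a few of these genes because late cell cycle genes are known for promoters that hold CCAAT boxes, bound by NF-Y, and a cell cycle genes homology region (CHR), bound by the MuvB complexes. The letters CCAAT, and separately the letters TTTGAA for the CHR, were searched on both strands in the 250 bases before each RefSeq start on GRCm38.p6, and overlapping matches were counted separately. Of the 52 genes 44 had a promoter in the table, in 50 windows. At least 1 CCAAT stood before 31 of these 44 genes (70.5%), against 37.5% of all 27025 genes with a promoter there. TTTGAA stood before 14 of 44 (31.8%), against 18.3% of all, and the same 14 held both motifs, against 6.45% of all. Of the 7 augmin genes with a window, CCAAT stood before 4 and TTTGAA before 0. Among genes called higher against the knockout line, 12 of 38 held both motifs, and 2 of the 5 measured genes not called did. A match is a description of letters, not of binding.

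The 4 genes with the largest difference from the knockout line among those holding both motifs are printed, with Haus2, the augmin gene with the smallest difference, as the contrast. The 250 bases lie at chr4:52438971-52439220 (plus strand) for Smc2, chr15:102296043-102296292 (plus) for Espl1, chr6:125191587-125191836 (minus) for Ncapd2, chr2:164769679-164769928 (plus) for Ube2c and chr2:120609132-120609381 (plus) for Haus2. Each is written from 5′ to 3′ and ends at the base before the start, and capitals mark the matches on either strand.
Smc2: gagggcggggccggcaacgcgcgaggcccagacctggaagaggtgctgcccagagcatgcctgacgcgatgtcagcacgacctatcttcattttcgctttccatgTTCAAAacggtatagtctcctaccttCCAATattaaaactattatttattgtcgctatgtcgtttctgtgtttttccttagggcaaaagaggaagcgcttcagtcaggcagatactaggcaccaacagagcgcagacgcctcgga
Espl1: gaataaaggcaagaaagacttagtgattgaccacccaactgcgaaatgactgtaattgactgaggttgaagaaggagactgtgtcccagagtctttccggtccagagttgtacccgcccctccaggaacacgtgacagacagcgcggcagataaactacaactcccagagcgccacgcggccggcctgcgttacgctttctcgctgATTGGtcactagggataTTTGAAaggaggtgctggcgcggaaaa
Ncapd2: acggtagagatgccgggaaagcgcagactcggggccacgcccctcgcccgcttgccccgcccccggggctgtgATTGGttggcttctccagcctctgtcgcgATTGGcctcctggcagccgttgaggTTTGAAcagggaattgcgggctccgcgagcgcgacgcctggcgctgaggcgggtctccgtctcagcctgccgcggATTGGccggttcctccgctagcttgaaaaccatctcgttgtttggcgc
Ube2c: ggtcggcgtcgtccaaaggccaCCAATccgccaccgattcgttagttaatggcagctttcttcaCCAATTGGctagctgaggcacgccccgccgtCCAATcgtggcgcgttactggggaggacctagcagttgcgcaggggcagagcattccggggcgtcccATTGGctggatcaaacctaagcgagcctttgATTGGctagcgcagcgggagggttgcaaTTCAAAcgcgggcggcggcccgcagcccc
Haus2: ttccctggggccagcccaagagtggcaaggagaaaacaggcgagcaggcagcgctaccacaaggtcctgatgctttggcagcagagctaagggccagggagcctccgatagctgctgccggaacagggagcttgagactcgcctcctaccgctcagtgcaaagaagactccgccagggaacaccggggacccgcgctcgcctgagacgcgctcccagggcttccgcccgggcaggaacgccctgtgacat
In Espl1 the CCAAT match began 44 bases and the TTTGAA match 27 bases before the start, in the order of a CCAAT box followed by a CHR. In Ube2c, which held 6 CCAAT matches, the TTTGAA match began 29 bases before the start, nearer to it than every CCAAT match (57 to 228 bases). A pair of its CCAAT matches overlaps, 1 on each strand. In Ncapd2 the TTTGAA match lay at 123 bases, between CCAAT matches at 48, 148 and 177 bases, and in Smc2 it lay at 145 bases with the CCAAT match at 119. The Haus2 window held neither motif. Neither stood before Mad2l1 (2.61), Cenph (2.51) or Haus5 (1.33) either, which were all called higher against the knockout line. Of the 38 genes so called that had a window, 28 held a CCAAT. Whether the motifs go with the differences was not tested. Haus2 has 2 windows in the table, and the first is shown.

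**Figure D4:**
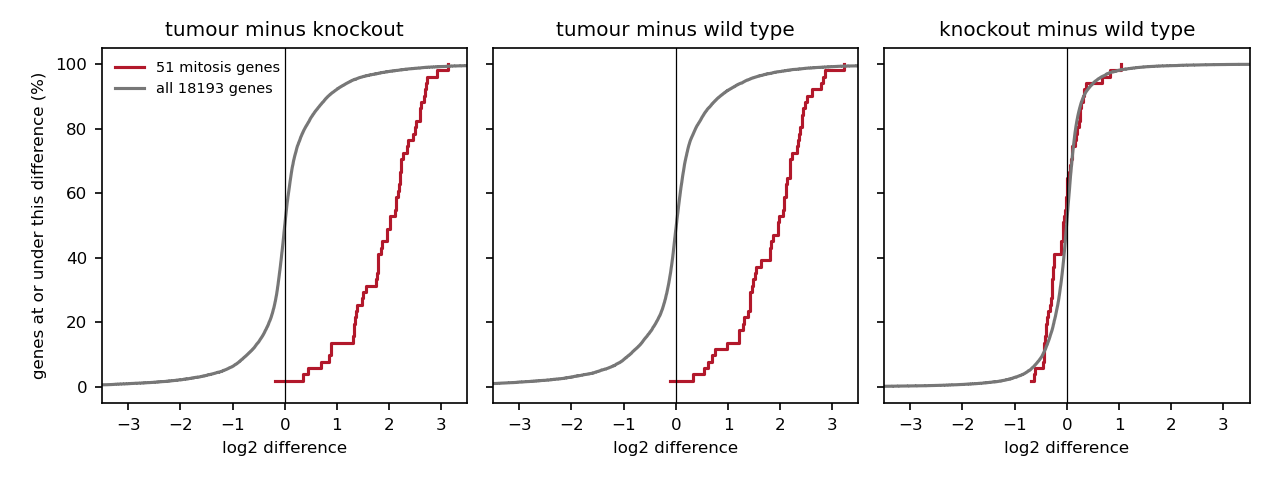
Cumulative share of genes (percent) at or under each log2 difference, for the 51 mitotic genes and for all 18193 genes, in tumour minus knockout, tumour minus wild type and knockout minus wild type; a few genes fall beyond the axis. The mitotic curve is shifted to medians of 2.01 and 1.96 in the tumour comparisons and lies close to that of all genes in the last, at a median of -0.07.

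Between the tracheal lines the mitotic genes differed little, and in both directions. In the knockout against the wild-type line 1 of 51 genes was called, Ect2, which was higher, while 1.90% of all genes were called higher and 2.98% lower. By adjusted p alone 3 were higher and 11 lower, against 10.2% and 16.2% of all genes, so neither count stands far from the share over all genes. After quantile normalization of the arrays the same split was 7 higher and 7 lower. The median difference was -0.07, against -0.00423 over all genes. Knockout and wild-type arrays overlapped in 30 genes, lay wholly higher in the knockout line in 8 (against 16.7% of all genes) and wholly lower in 13 (against 22.4%). This comparison shares the knockout arrays with the first tumour comparison and the wild-type arrays with the second.

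The 3 genes higher in the knockout line by adjusted p were Ect2 (1.04 ± 0.15, adjusted p = 7.9e-05, 2.06-fold), Ccna2 (0.83 ± 0.12, adjusted p = 8.14e-05) and Plk4 (0.67 ± 0.13, adjusted p = 0.00136). All 3 knockout arrays lay above all 3 wild-type arrays in each. The fold of Ect2 was close to the threshold: it was 0.95 log2 without knockout replicate 1, 1.00 without knockout replicate 3 and 0.89 without wild-type replicate 1, each just short of a call, with adjusted p of at most 0.000724.

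The 11 genes lower in the knockout line by adjusted p held 5 of the 9 checkpoint and anaphase genes and 4 of the 7 condensin and chromosome structure genes. Of all genes, 16.2% were lower by that rule, and whether these roles differ from that share was not tested. Checkpoint genes were Ttk (-0.69 ± 0.13, adjusted p = 0.000759), Bub1 (-0.62 ± 0.13, adjusted p = 0.0028), Bub1b (-0.62 ± 0.12, adjusted p = 0.00147), Espl1 (-0.40 ± 0.13, adjusted p = 0.0308) and Cdc20 (-0.39 ± 0.11, adjusted p = 0.0194). Ttk, for example, read 7.30, 6.86 and 6.87 in the knockout line, against 7.61, 7.61 and 7.87 in the wild-type line, without overlap. In the second group Mki67 fell by 0.44, Top2a by 0.43, Ncapd2 by 0.41 and Smc4 by 0.35, with adjusted p between 0.0166 and 0.0286. Racgap1 (-0.45 ± 0.12, adjusted p = 0.0136) and Tpx2 (-0.44 ± 0.10, adjusted p = 0.00414) complete the 11. All were under 2-fold. Knockout and wild-type arrays overlapped in Espl1 and Ncapd2, where knockout replicate 1, the highest knockout array for most genes, read 6.94 and 8.18, and did not overlap in the other 9.

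Role medians between the tracheal lines were -0.39 for checkpoint and anaphase, -0.38 for condensin and chromosome structure, -0.38 for the 2 spindle assembly factors, 0.13 for mitotic entry, and between -0.03 and 0.01 for the passenger, kinetochore, augmin and cytokinesis groups. On the mean signals, 31 genes were ordered tumour, wild type, knockout and 19 tumour, knockout, wild type, and Haus2 alone was ordered knockout, wild type, tumour. The number past the adjusted p, 14 with all arrays, depended on single arrays. It was 9 without knockout replicate 2, 8 without knockout replicate 3 and 8 without wild-type replicate 2. Those 9 included Foxm1 and Pttg1, which were not among the 14. Cdc20, Espl1, Racgap1, Smc4, Ncapd2, Top2a and Mki67 dropped out without knockout replicate 2. Ccna2, Plk4, Ect2, Bub1b and Ttk passed under every alternative tried.

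Integrity controls are given beside these results. For Gapdh the 3' minus 5' log2 signal was 0.47 ± 0.27 for tumour, 0.52 ± 0.05 for knockout and 0.81 ± 0.44 for wild-type arrays (SD, n = 3 each), with exact two-sided permutation p of 0.7, 0.3 and 0.4 for tumour against knockout, tumour against wild type and knockout against wild type. That of beta-actin was 0.57 ± 0.19 for tumour, 0.93 ± 0.03 for knockout and 1.21 ± 0.53 for wild-type arrays (SD, n = 3 each). By the same exact permutation test p was 0.1 for tumour against either tracheal line, the smallest that 3 against 3 arrays allow, and 0.6 for knockout against wild type. The part of RNA quality in the differences above was not tested.

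The other probe sets of the same genes gave a second reading. The 51 genes had 110 probe sets, and 33 genes had more than 1. Of the 59 further probe sets 26 were called higher and 0 lower in the tumour against the knockout line. Of the 33 not called, 12 lay under the detection floor in all 3 lines. In each tumour comparison 28 of the called genes had further probe sets, and at least 1 of these was also called higher for 17 of them against the knockout line and for 18 against the wild-type line. None was called the opposite way in either tumour comparison.

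Foxm1 shows how far probe sets can differ. Its brightest probe set differed by 0.89 between tumour and knockout lines, while another averaged 9.87 in tumour cells, 6.75 in knockout cells and 6.38 in wild-type cells. Its differences of 3.13 and 3.49 were called in both tumour comparisons, as were those of a further one (1.37 and 1.71). The second probe set of Cenpn differed by 1.27 between tumour and knockout lines and was called there. The further probe sets of Bub3 differed by 0.08 to 0.26 and those of Haus2 by -0.31, 0.08 and 0.24, none called. A pair of the other Haus2 probe sets read 0.76 and 0.62 higher in the knockout than in the wild-type line, while the brightest one differed by 0.08.

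**Figure D5:**
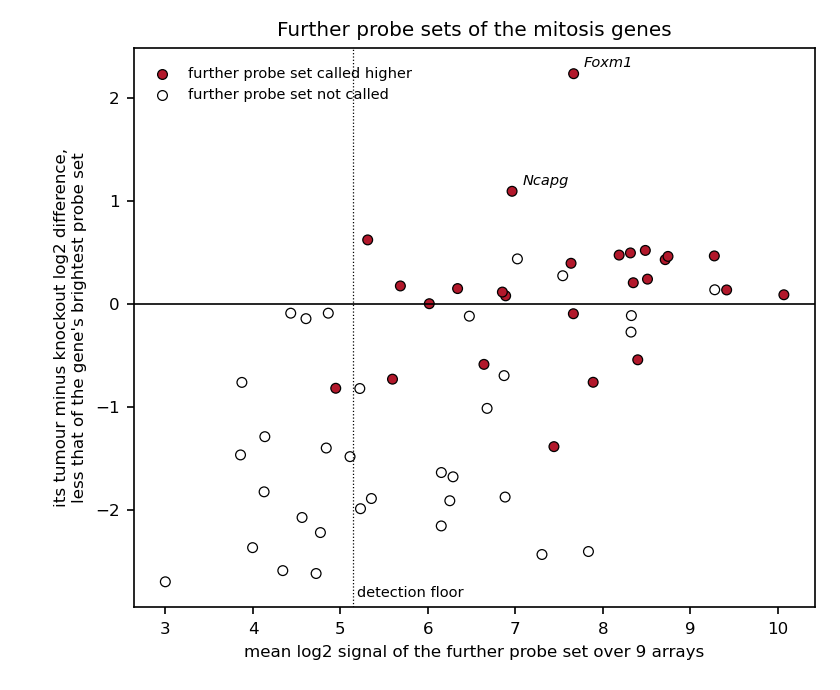
Each of the 59 further probe sets of the mitotic genes by its mean log2 signal over the 9 arrays (x) and by its tumour minus knockout log2 difference less that of the gene's brightest probe set (y); filled points were called higher and the dotted line is the detection floor at 5.15. Most probe sets under the floor show a smaller difference than the brightest one, and the Foxm1 and Ncapg points above 1 show larger ones.

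Other genes of the same machinery, not among the 52, were counted by the same rule. Of 109 listed, 106 were measured. In the tumour against the knockout line 51 were called higher and 1 lower, with a median of 0.94 (7.79% and 6.38% of all genes were so called). Against the wild-type line 46 were higher and 2 lower, with a median of 0.74 (8.09% and 8.46% of all genes). Whether they differ from the 51 was not tested. Between knockout and wild-type lines 1 was higher and 2 lower, with a median of -0.16, counts near or under the shares of all genes (1.90% and 2.98%). By adjusted p alone 7 were higher and 19 lower (10.2% and 16.2% of all genes). The difference was below 0 in 78 of the 106 and above 0 in 28, while the median over all genes was -0.00423. Knockout arrays lay wholly above wild-type arrays in 13 and wholly below in 35 (16.7% and 22.4% of all genes). Called higher against the knockout line were 21 of 26 other spindle and entry genes, 14 of 23 other kinetochore genes, 9 of 23 other checkpoint and anaphase genes, 3 of 8 other cytokinesis genes, 2 of 3 condensin II subunits and 2 of 14 cohesin genes. Against the wild-type line the numbers called higher were 19, 14, 8, 3, 0 and 2 in the same order, with 0 for condensin II. None of the 9 genes of the gamma-tubulin ring complex, which augmin brings to the spindle, was called in any comparison. Their highest difference, 0.9993 log2 against the wild-type line, lay just under 2-fold. By limma adjusted p alone 5 of the 9 were higher in tumour cells and 2 lower, set against knockout cells, while 44.5% of all genes passed in either direction. Against wild-type cells 4 were higher and 2 lower by that rule, with 47.3% of all genes past it.

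The largest differences from the knockout line were in Melk, a late cell cycle kinase (3.19 ± 0.10), Nek2, a centrosomal kinase (3.09 ± 0.12), Zwilch, which helps load dynein on kinetochores (2.75 ± 0.14), and Mis18a, which prepares centromeres for Cenpa (2.63 ± 0.15). Ska1, of the outer kinetochore Ska complex, averaged 7.84 in tumour cells, while its knockout mean lay under the detection floor of 5.15, so its difference of 2.85 ± 0.12 rests in part on background. Esco2, the acetyltransferase that secures sister chromatid cohesion, was at least 6.17-fold higher, a bound because all its knockout arrays lay under the detection floor. The gene called lower was Mau2, a partner of the cohesin loader (-1.12 ± 0.15, adjusted p = 1.89e-05). Against the wild-type line Nek2 (3.10 ± 0.12), Gtse1, a microtubule-binding protein of the late cell cycle (2.61 ± 0.10), and Cep55, which acts at abscission (2.46 ± 0.12), were among the largest. Mau2 (-1.36 ± 0.15) and Cdc16, a subunit of the anaphase-promoting complex (-1.28 ± 0.10), were lower there. Cdc16 thus moved opposite to Cdc20 and Ube2c, which act with the same complex.

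Between the tracheal lines Gtse1 was called higher in the knockout line (1.00 ± 0.10, adjusted p = 1.72e-06). Its fold of 2.0019 lay only just past the threshold. Cdc25b, a phosphatase that activates Cdk1, averaged 9.33 in the knockout line and 10.54 in the wild-type line, and was called lower (-1.20 ± 0.11, adjusted p = 1.48e-06). Ncapg2, of condensin II, averaged 7.30 in the knockout line and 8.46 in the wild-type line and was also called lower (-1.16 ± 0.11, adjusted p = 9.09e-07). In the tumour line Cdc25b averaged 9.56 and Ncapg2 9.21.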

How the data were processed

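Total RNA from 3 lines, 3 arrays each, was measured on Affymetrix MG-430 2.0 arrays after purification on silica columns with DNase and labelling of the cRNA with biotin, per the labels' protocols. The authors' deposited values are log2 signals for 45101 probe sets. How background was corrected and arrays were normalized is not given in the sources used here. An array has no read depth, and precision is limited by the number of arrays.

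Probe sets were named through the platform annotation as supplied: 64 were controls, 34945 carried 1 symbol, 932 several and 9160 none. Each gene was read through its brightest single-symbol probe set, and 9010 of the 18193 genes had several. The annotation can be old, and 10 of the 51 genes were read through probe sets ending in _x_at or _s_at, which can pick up related transcripts.

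The 9 arrays entered a single limma fit (version 3.58.1 in R 4.3.3) of the 3 line means per gene, using lmFit, then eBayes, with 6 residual degrees of freedom. A call needs a two-sided Benjamini-Hochberg adjusted p under 0.05 over all genes and a difference of at least 2-fold. Errors after ± are limma's standard errors unless marked SD. The detection floor, 5.15 log2, is the 95th percentile of 27 bacterial control probe sets, and a fold against a line whose 3 arrays lie under it is given as a lower bound; none of the 51 genes had such a line. The procedure was tested on simulated data. Same-numbered arrays of different lines did not deviate together (correlations of -0.142 to 0.119), and the fit did not pair arrays by replicate number. These values cannot tell whether same-numbered arrays were handled together.

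The members, the lists and the tests were chosen with earlier results of these data known. Any of the 52 genes may be named; of the 109 other genes, those named are the 6 with the largest called change per direction and comparison, arrays not overlapping. Promoters are from RefSeq (GRCm38.p6). Alternatives tried were quantile normalization, median centring, dropping the dimmest 40% of probe sets, averaging all probe sets of a gene, dropping _x_at and _s_at probe sets, eBayes with trend and robust settings, a fit of the 2 lines compared, a 1.5-fold threshold, a replicate block and leaving out each array.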

Additional observations from a re-analysis of the deposited data

How the results depend on the processing

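The number of mitotic genes called stayed at 40 to 48 in the tumour against the knockout line, all higher, over 18 alternatives, and at 40 to 48 against the wild-type line; the lowest came from averaging a gene's probe sets and the highest from a 1.5-fold threshold. Leaving out each array gave 44 to 45 in either. Averaging probe sets ended the calls of Incenp, Cenpa, Cenpk, Spc25, Nusap1 and Top2a against knockout (0.57 to 0.91 log2) and added Foxm1 (1.38) and Cenpn (1.08). Against wild type it ended those of Ttk, Cenpa, Cenpk, Nusap1 and Top2a. In the knockout against the wild-type line the single call became 6 at 1.5-fold (3 higher, 3 lower) and 0 to 1 with an array left out. The number of genes past the adjusted p there, 14 with all arrays, became 8 to 17 with an array left out. The causes were not tested. With the replicate block the counts of calls were 44, 44 and 1, and no call changed. Over the 17 alternatives that keep the 2-fold threshold 857 of 866 single-gene results kept their call against knockout, 855 against wild type and 863 between the tracheal lines, and no called difference changed sign. Among differences not called, 28 between the tracheal lines, in 12 genes and of at most 0.16 log2, and 1 against wild type (Haus2) did. Medians over all genes moved by less than 0.1 log2 under every scaling. Precision is limited by 3 arrays of 1 line per group, and by probe sets near the floor.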
